A study of Rattus norvegicus with 30 samples.

Results

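Dimethyl fumarate (DMF) and monomethyl fumarate (MMF) were compared at the same concentration and time in primary hippocampal neurons of Wistar rats. Neurons were prepared from wild-type embryos at embryonic day 18, grown for 7 days, and treated for 24 h with 30 µM DMF or 30 µM MMF, both dissolved in DMSO at a final 0.2%. Each compound had 3 libraries, the study consisted of 3 independent experiments, and the 6 libraries were paired by the replicate number in their names. Neurons kept in 0.2% DMSO alone for 24 h gave 3 further libraries, and both compounds were also sequenced after 4 h, with 3 libraries each. These 6 libraries were part of a series of 30. All 18878 protein-coding genes of the table were considered, out of 20068 genes of every type, and 14123 of them had enough reads to be tested. The labels do not say how many embryos went into a culture, and no transgene or deletion was carried by any group.

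DMF is the diester and MMF the monoester of fumaric acid with methanol, so the molecules differ by a single methyl group, and esterases convert DMF to MMF. Both are studied as activators of Nrf2, a transcription factor that the adaptor Keap1 holds at a low level by directing it to the proteasome. When cysteines of Keap1 are modified by an electrophile, Nrf2 accumulates, pairs with a small Maf protein and binds antioxidant response elements in front of genes for glutathione synthesis, thioredoxin recycling, quinone reduction, heme degradation and iron storage.

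At 24 h the compounds differed widely. Levels are normalized counts, which are read counts divided by a size factor of the library. Differences are given as DMF minus MMF on the scale of log2(normalized count + 1). Using limma with the replicate number as a block and an adjusted p under 0.05, 1737 protein-coding genes were differentially expressed (DEGs), 12.3% of those tested. Of these, 702 (4.97% of those tested) were higher with DMF and 1035 (7.33%) were lower. Of these DEGs, 449 of the higher and 493 of the lower differed by under 0.5 on the log2 scale. A log2 difference above 1 was reached by 89 DEGs, and 196 lay below −1. Further out, 18 DEGs exceeded 2 and 3 lay below −2. Over all genes tested the median log2 difference was −0.0087. The DMF and MMF libraries did not overlap in 22.8% of the genes tested, a share that also holds genes that were not DEGs. Of the 12386 genes that were not DEGs, 11440 had a 95% confidence interval within a log2 difference of 1 in either direction and 9270 within 0.5, and the remainder had intervals that reach larger differences. The count was 505 without the block, 1124 by DESeq2 with the block, 890 without replicate 2 and 2734 without replicate 3. A fit without 1 replicate number leaves fewer residual degrees of freedom than the 2 of the main fit. Its count therefore does not show that calls are stable.

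**Figure D1:**
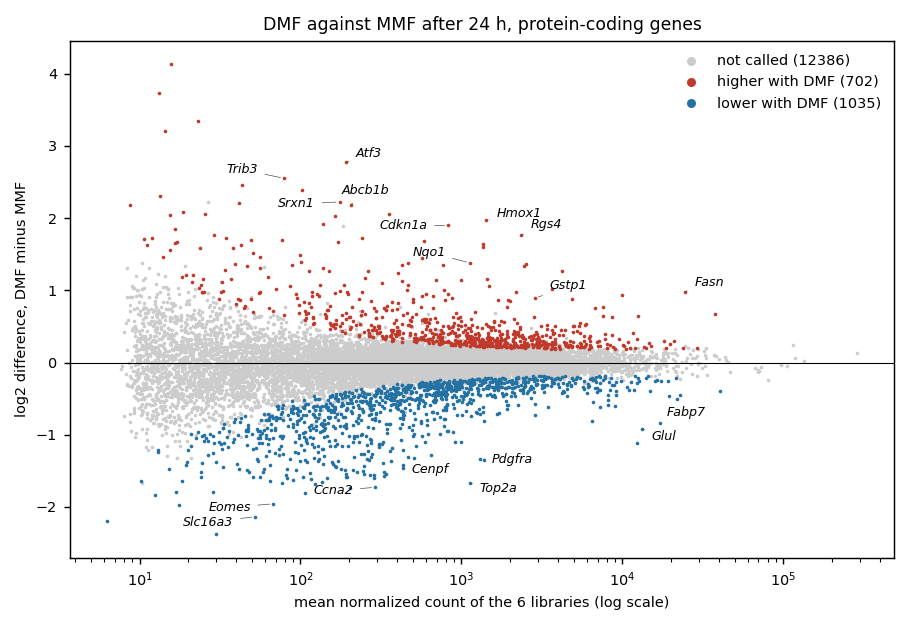
Log2 difference between DMF and MMF at 24 h for each protein-coding gene tested (vertical axis) against its mean normalized count over the 6 libraries (horizontal axis, log scale), with DEGs coloured by direction. The cloud is centred on no difference (median −0.0087), with 702 DEGs above 0 and 1035 below.

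The labelled cell type was checked against its markers. The neuronal genes *Map2*, *Snap25*, *Tubb3* and *Slc17a7* were expressed in every library, and the summed level of the neuronal identity list was 10787 to 12457 RPM (reads scaled to the depth of the library) with DMF and 11718 to 12988 with MMF. Astrocyte and oligodendrocyte precursor genes were also expressed in every library, whereas the defining microglial genes *Cx3cr1*, *P2ry12*, *Itgam*, *Tmem119* and *Ptprc* stayed under 0.5 RPM and the endothelial gene *Cdh5* was at 0 in the libraries of both compounds. Transcripts of neurons, glia and dividing cells were thus present together, and each library is a bulk mixture. The libraries held 17186218 to 24654091 reads assigned to genes. Libraries of replicate 3 stood apart from the others in all 3 groups. Their summed astrocyte level was 6948 RPM with DMF, 7476 with MMF and 7364 with DMSO, against 9691 to 12886 in the other libraries.

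Genes of the Nrf2 pathway were mostly higher with DMF among those that differed, and most members were not DEGs. Over 7 lists of Nrf2 effector genes, 30 of 110 genes tested were higher with DMF, 6 were lower, and the median log2 difference was 0.031. Over all genes tested 4.97% were higher and 7.33% lower. *Nfe2l2*, which encodes Nrf2 itself, had 484, 499.6 and 484 normalized counts with DMF and 334, 357 and 212 with MMF. The groups did not overlap, and the log2 difference was 0.73 (95% confidence interval, here called the interval, 0.44 to 1.03, adjusted p = 0.00593). Among its partners and repressors, 3 of 12 genes were higher with DMF and none lower. These were *Nfe2l2* and the small Maf genes *Mafg* (log2 difference 0.33) and *Maff* (1.18). *Keap1*, the repressor that binds Nrf2, was not a DEG, with a log2 difference of 0.15 and an interval of −0.03 to 0.32. Without the block the calls of *Nfe2l2* (adjusted p = 0.0669) and *Maff* (0.116) were lost, and without replicate 3 that of *Maff* (log2 difference 0.66, adjusted p = 0.0681).

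In the quinone reduction and conjugation branch, *Nqo1*, *Gstp1* and *Gsta1* rose in steps from DMSO to MMF to DMF. *Nqo1*, the NAD(P)H quinone reductase used as a standard readout of Nrf2 (chromosome 19, 35295573 to 35310557 in mRatBN7.2), had 1609.6, 1445 and 1841 normalized counts with DMF and 676, 670.2 and 536 with MMF. It was 2.6 times higher with DMF, a log2 difference of 1.38 with a standard error (SE) of 0.11 (adjusted p = 5.90e-05). The lowest DMF library lay above the highest MMF library. On the common scale of the 9 libraries at 24 h, *Nqo1* had 324, 298 and 282 normalized counts with DMSO, beside a mean of 596 with MMF and 1551 with DMF. *Gstp1*, the pi-class glutathione transferase, had 3675, 3585 and 3892 normalized counts with DMF and 2048, 2112 and 1866 with MMF, a log2 difference of 0.89 (SE 0.07, adjusted p = 4.17e-05). *Gsta1*, an alpha-class transferase, had 1209.7, 927 and 965 with DMF and 644, 535 and 386 with MMF, a log2 difference of 1.01 (adjusted p = 2.04e-04). Neither gene's groups overlapped. The aldehyde oxidase *Aox1* and the microsomal epoxide hydrolase *Ephx1* were also higher with DMF, by 1.05 and 1.14 on the log2 scale. The list as a whole had a median near no difference. Of its 33 genes tested, 6 were higher and 3 lower with DMF, and the median log2 difference was −0.066. The share of lower genes is near the 7.33% over all genes tested, against 4.97% for higher ones. The 3 lower genes were the mu-class transferases *Gstm2* (−0.80), *Gstm5* (−0.44) and *Gstm7* (−0.37). No gene of the list was called below DMSO with DMF, and the medians against DMSO were 0.052 with DMF and 0.228 with MMF. Transferases of one class have near-identical sequences, so reads can be shared between members and single values of this family are uncertain. Without the block 4 were higher and none lower, and the calls of *Aox1* (adjusted p = 0.183), *Gstm2* (0.199), *Gstm5* (0.205) and *Gstm7* (0.416) were lost. *Gstm2* was also lost by DESeq2 (0.151), without replicate 1 (0.0983) and without replicate 2 (0.224).

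In the thioredoxin branch, 7 of 12 genes tested were higher with DMF and none lower, with a median log2 difference of 0.233. *Srxn1*, sulfiredoxin, which restores over-oxidised peroxiredoxins, had 146, 265 and 469 normalized counts with DMF and 47.1, 75.6 and 48.1 with MMF. It was 4.67 times higher with DMF (log2 difference 2.22, interval 1.63 to 2.82, adjusted p = 6.82e-04), and the DMF library of replicate 3 was the highest. Thioredoxin reductase *Txnrd1* differed by 0.39, peroxiredoxin *Prdx1* by 0.26 and thioredoxin *Txn1* by 0.21 on the log2 scale. *Txnip*, which binds and inhibits thioredoxin, was higher as well (0.57), so the list's higher members included an inhibitor. *Sesn2*, a stress-induced sestrin, differed by 1.16 and the mitochondrial reductase *Txnrd2* by 0.36. The peroxiredoxins *Prdx3*, *Prdx5* and *Prdx6* were not DEGs, with intervals of −0.08 to 0.21, −0.15 to 0.14 and −0.08 to 0.17. The count was 2 without the block and 4 without replicate 2. The calls of *Txnrd1*, *Txnrd2*, *Prdx1*, *Txn1* and *Txnip* were lost without the block (adjusted p from 0.106 to 0.353). *Txnrd2* was also lost by DESeq2 (0.147) and with any 1 replicate left out (0.0503, 0.118 and 0.101). *Txn1* was also lost by DESeq2 (0.0821), without replicate 2 (0.328) and without replicate 3 (0.0747), and *Prdx1* without replicate 2 (0.169).

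In the glutathione branch, 4 of 13 genes tested were higher with DMF and none lower, with a median of 0.079. *Slc7a11*, the cystine importer, had 558, 542 and 1432 normalized counts with DMF and 353, 383 and 157 with MMF. The groups did not overlap and the log2 difference was 1.44 (SE 0.39, adjusted p = 0.0408), with replicate 3 highest under DMF. Its partner chain *Slc3a2* differed by 0.51. *Gclc*, the catalytic subunit of the rate-limiting enzyme of glutathione synthesis, differed by 0.38 (adjusted p = 0.0117), whereas its modifier subunit *Gclm* was not a DEG (log2 difference 0.08, interval −0.13 to 0.29). The fourth gene, *Chac1* (1.23), degrades glutathione. *Slc7a11* and *Slc3a2* passed neither without the block (adjusted p = 0.119 and 0.0704) nor by DESeq2 (0.339 and 0.0597), which left 2 higher genes in each case. Without replicate 3 the log2 differences were 0.58 for *Slc7a11* and 0.33 for *Slc3a2*.

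For heme and iron, 4 of 15 genes tested were higher with DMF and none lower. *Hmox1*, heme oxygenase (chromosome 19, 13467244 to 13474079 in mRatBN7.2), had 1120.3, 1823 and 3993 normalized counts with DMF and 542, 711 and 349 with MMF. It was 3.92 times higher with DMF (log2 difference 1.97, interval 1.19 to 2.75, adjusted p = 0.0056). The DMF libraries differed among themselves, with replicate 3 the highest, and all lay above the MMF libraries. Ferritin light chain *Ftl1* (0.30), ferritin heavy chain *Fth1* (0.29) and biliverdin reductase *Blvrb* (0.33) differed by smaller amounts. Without replicate 3 the log2 difference of *Hmox1* was 1.2. *Hmox1* missed the threshold by DESeq2 (adjusted p = 0.0628), and *Ftl1*, *Fth1* and *Blvrb* missed it without the block (0.107, 0.12 and 0.225) and without replicate 2 (0.175, 0.131 and 0.118). *Blvrb* missed it by DESeq2 (0.0749) and without replicate 3 (0.106) as well.

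Among NADPH-producing enzymes 1 gene was higher and 3 were lower of 14 tested. Malic enzyme *Me1* had 3975, 3489 and 2818 normalized counts with DMF and 2670.3, 2058 and 1892 with MMF (log2 difference 0.64, adjusted p = 1.56e-04). The isocitrate dehydrogenases *Idh1* (−0.29) and *Idh2* (−0.37) and the folate enzyme *Aldh1l1* (−0.66), which is also an astrocyte marker, were lower. The remaining effector list held the oxidative stress gene *Osgin1*, at 79.3, 87.7 and 193 normalized counts with DMF and 40.1, 33.7 and 27.3 with MMF (log2 difference 1.70, adjusted p = 0.00536). It also held the autophagy receptor *Sqstm1* (0.64) and pirin *Pir* (0.73), and with *Nfe2l2* these made 4 higher of 14 tested and none lower. Without the block the calls of *Me1* (adjusted p = 0.0607), *Aldh1l1* (0.0589) and *Idh2* (0.376) were lost, and without replicate 2 that of *Idh1* (0.0851).

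The efflux pumps had the highest median of the 7 effector lists, where 4 of 9 genes tested were higher with DMF, none lower, and the median was 0.574. *Abcb1b*, a P-glycoprotein that exports drugs, had 269.6, 328 and 409 normalized counts with DMF and 48.1, 98.3 and 79.2 with MMF, and the groups were far apart. The log2 difference was 2.18 (SE 0.16, adjusted p = 3.83e-05), 4.54 times higher with DMF. Its paralog *Abcb1a* (3.34) spans 25158362 to 25442709 of chromosome 4 in mRatBN7.2, which contains *Abcb1b* at 25242798 to 25325199. Since the sequences are near-identical and the gene spans overlap, the split of reads between the pair is uncertain. *Abcc4* (0.67) and the cholesterol exporter *Abca1* (0.57) completed the higher genes, and *Abcc1* was not a DEG (interval −0.12 to 0.22). *Abcc4* (adjusted p = 0.0832) and *Abca1* (0.384) passed only with the block, *Abcc4* had a log2 difference of 0.39 without replicate 3, and DESeq2 gave *Abcb1a* no adjusted p.

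**Figure D2:**
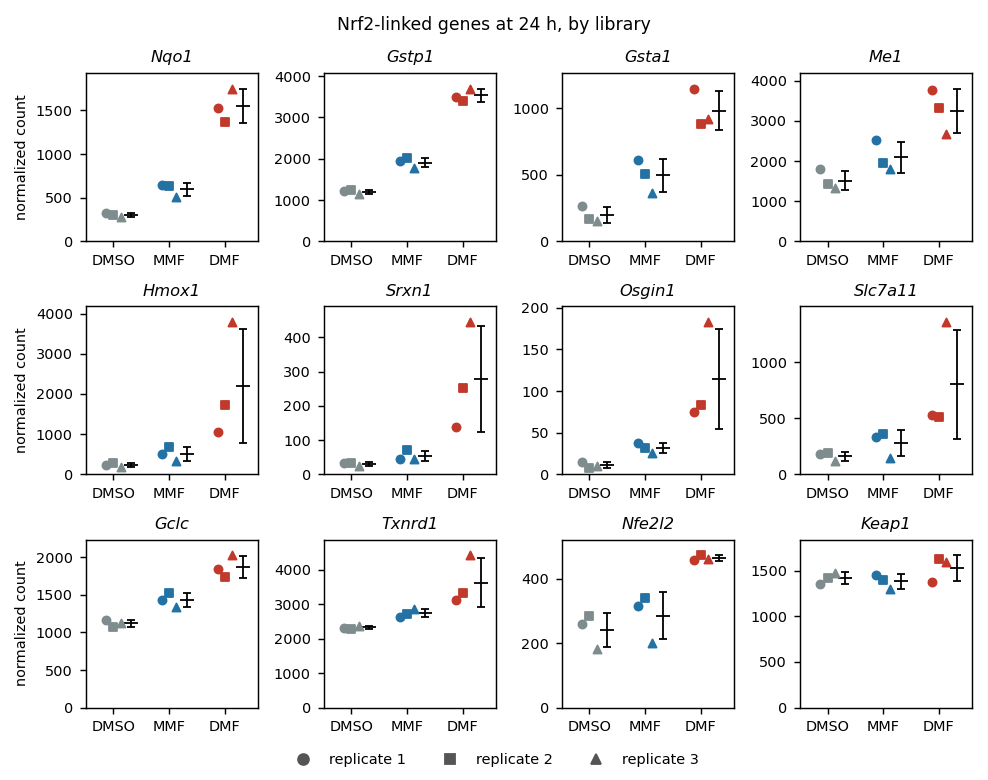
Normalized counts on the common scale of the 9 libraries at 24 h for genes of the Nrf2 pathway, with DMSO, MMF and DMF side by side, 1 point per library (shape marks the replicate number) and bars for the mean ± SD (n = 3). *Nqo1*, *Gstp1* and *Gsta1* step up from DMSO through MMF to DMF without overlap between groups.

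Promoters of the higher effector genes were read to see which hold the core of the antioxidant response element, TGANNNNGC, on either strand. Sequences were those of RefSeq for build GRCr8, 250 bases before to 50 after the gene start, and were found for 91 of the 110 genes. The core was present in 14 of 26 genes higher with DMF, in 4 of 6 lower ones and in 29 of 59 that were not DEGs, and 40.5% of all 33469 promoters in that table held it, so these letters were common throughout. A stricter form, TGACNNNGC, a subset of the first, was present in 12.1% of all promoters, in 7 of the 26, in 3 of the 6 and in 12 of the 59. The 4 genes with the smallest p that held the core are shown as the clearest differences of the pathway that hold it. Each run covers 200 bases before to 20 bases after the gene start, 5′ to 3′ on the gene's strand, and capitals mark each match of the core or of its reverse complement.
Abcb1b (chr4:26280010-26280229, minus strand): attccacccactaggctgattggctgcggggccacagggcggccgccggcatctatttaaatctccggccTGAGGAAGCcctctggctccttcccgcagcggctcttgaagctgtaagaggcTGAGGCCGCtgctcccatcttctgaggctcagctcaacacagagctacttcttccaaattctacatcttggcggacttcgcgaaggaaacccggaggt
Gstp1 (chr1:210769686-210769905, minus strand): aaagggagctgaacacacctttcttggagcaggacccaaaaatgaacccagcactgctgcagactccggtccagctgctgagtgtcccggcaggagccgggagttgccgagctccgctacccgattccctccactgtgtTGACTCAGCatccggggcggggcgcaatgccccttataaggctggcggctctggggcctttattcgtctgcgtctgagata
Nqo1 (chr19:52220248-52220467, minus strand): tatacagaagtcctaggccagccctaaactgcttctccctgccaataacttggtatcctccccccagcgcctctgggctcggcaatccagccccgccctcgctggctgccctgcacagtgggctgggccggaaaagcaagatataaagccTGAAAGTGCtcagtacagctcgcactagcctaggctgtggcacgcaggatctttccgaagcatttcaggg
Me1 (chr8:96540225-96540444, minus strand): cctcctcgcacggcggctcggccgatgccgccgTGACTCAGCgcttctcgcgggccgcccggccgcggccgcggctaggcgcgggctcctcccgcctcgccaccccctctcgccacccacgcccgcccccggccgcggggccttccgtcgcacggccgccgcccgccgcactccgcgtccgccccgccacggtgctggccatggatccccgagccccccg
The match lay 61 bases before the start in *Gstp1*, 50 in *Nqo1* and 167 in *Me1*, and *Abcb1b* held 2, at 130 and 78 bases. A match of letters is a description and not evidence of binding.

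Most genes of cell division were lower with DMF. Of 139 proliferation genes tested, 122 were lower with DMF, none was higher, and the median log2 difference was −1.014, against −0.0087 for all genes. In the mitosis list 70 of 77 genes were lower, with a median of −1.269. *Top2a*, the topoisomerase that untangles replicated chromosomes (chromosome 10, 83945735 to 83976874 in mRatBN7.2), had 595, 469.6 and 566 normalized counts with DMF and 1786, 1634 and 1758 with MMF. It was 3.19 times higher with MMF (log2 difference −1.67, SE 0.07, adjusted p = 5.32e-06), and the groups were far apart. *Cdk1*, the kinase that starts mitosis, had 157, 169 and 167 with DMF and 532, 444 and 497 with MMF (log2 difference −1.57, adjusted p = 3.58e-05). *Cdc20*, an activator of the anaphase-promoting complex, had 229.9, 225 and 237 with DMF and 655, 650.2 and 597 with MMF (log2 difference −1.45, adjusted p = 2.82e-05). Cyclin A2 *Ccna2* (−1.73), the kinetochore genes *Cenpf* (−1.42) and *Ndc80* (−1.56), the spindle midzone gene *Prc1* (−1.28), the scaffold *Iqgap3* (−1.73) and the kinase *Pbk* (−1.81) followed. The proliferation antigen *Mki67* differed by −1.10.

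In the DNA replication list 52 of 62 genes were lower and none higher, with a median of −0.646. *Rrm2*, the regulated subunit of ribonucleotide reductase, had 179, 159 and 184 normalized counts with DMF and 518, 544 and 458 with MMF (log2 difference −1.54, adjusted p = 3.83e-05). Its constitutive partner *Rrm1* had 1015, 1005 and 1008 with DMF and 1536, 1571 and 1604 with MMF (log2 difference −0.64, adjusted p = 1.76e-04). Thymidine kinase *Tk1* (−1.37), the checkpoint mediator *Clspn* (−1.48), the replicative helicase genes *Mcm3* (−1.06) and *Mcm5* (−1.07), polymerase epsilon *Pole* (−0.86), the repressor *E2f7* (−1.20) and the sliding clamp *Pcna* (−0.55) were lower too. Summed over the mitosis list, the level was 662 to 735 RPM with DMF, 1411 to 1494 with MMF and 1231 to 1348 with DMSO. The replication list gave 648 to 788 with DMF, 1090 to 1128 with MMF and 1018 to 1055 with DMSO. Oligodendrocyte precursor markers moved the same way, from 3013 to 3564 RPM with MMF to 2557 to 2965 with DMF, and their part in this result was not tested. In bulk samples fewer dividing cells and less RNA of these genes per cell cannot be told apart. The mitosis count held between 67 and 71 in every setting tried, while the replication count fell to 30 without the block and 37 without replicate 2.

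**Figure D3:**
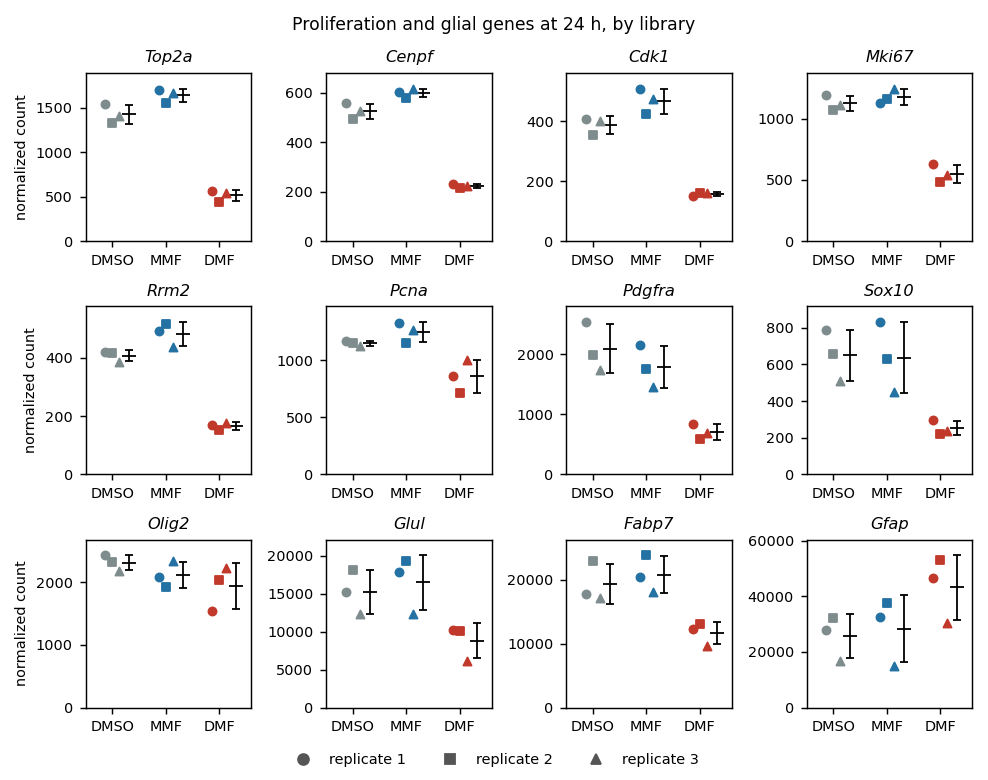
Normalized counts on the common scale of the 9 libraries at 24 h for genes of cell division and of glia, with DMSO, MMF and DMF side by side, 1 point per library (shape marks the replicate number) and bars for the mean ± SD (n = 3). Division genes are lowest in the 3 DMF libraries, and *Gfap* runs the other way from *Pdgfra* and *Glul*.

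Promoters of the lower division genes were searched for TTTGAA, the cell cycle genes homology region (CHR), and for CCAAT, the box bound by NF-Y, on both strands. Of 114 promoters found for the 139 genes, TTTGAA was present in 43 of 101 genes lower with DMF and 5 of 13 that were not DEGs, against 18.3% of all 33469 promoters. CCAAT was present in 66 of the 101 and 5 of the 13, against 37.5% of all promoters. Matches of the 2 motifs can share letters at their ends. Shown are the 4 genes with the smallest p that held TTTGAA, in the same windows as above, and capitals mark TTTGAA or its reverse complement.
Top2a (chr10:84473074-84473293, minus strand): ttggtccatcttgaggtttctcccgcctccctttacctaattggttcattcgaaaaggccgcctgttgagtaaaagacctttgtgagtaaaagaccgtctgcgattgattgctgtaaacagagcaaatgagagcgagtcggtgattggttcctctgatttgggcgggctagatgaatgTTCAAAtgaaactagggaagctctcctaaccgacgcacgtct
Cenpf (chr13:103760867-103761086, minus strand): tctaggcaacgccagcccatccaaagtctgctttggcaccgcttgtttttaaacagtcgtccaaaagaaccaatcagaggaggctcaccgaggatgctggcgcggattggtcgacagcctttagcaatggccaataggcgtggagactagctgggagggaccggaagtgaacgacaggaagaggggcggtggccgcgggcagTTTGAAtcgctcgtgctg
Cdc20 (chr5:137255780-137255999, minus strand): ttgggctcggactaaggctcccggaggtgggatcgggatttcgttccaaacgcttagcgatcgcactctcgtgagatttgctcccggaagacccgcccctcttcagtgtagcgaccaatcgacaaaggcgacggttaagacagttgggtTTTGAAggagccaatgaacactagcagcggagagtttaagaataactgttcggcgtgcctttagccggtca
Prc1 (chr1:143659281-143659500, plus strand): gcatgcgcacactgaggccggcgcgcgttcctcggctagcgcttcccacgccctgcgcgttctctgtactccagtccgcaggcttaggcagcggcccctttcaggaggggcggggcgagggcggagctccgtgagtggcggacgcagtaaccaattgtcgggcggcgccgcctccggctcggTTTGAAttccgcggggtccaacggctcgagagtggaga
The match lay 22 bases before the start in *Top2a*, 51 in *Cdc20* and 18 in *Prc1*, and 3 bases after it in *Cenpf*.

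Glial genes were lower with DMF in part. In the oligodendrocyte precursor list 11 of 23 genes tested were lower and none higher, with a median of −0.359. *Pdgfra*, the growth factor receptor that marks precursors, had 888, 616 and 724 normalized counts with DMF and 2258, 1847 and 1527 with MMF. The groups did not overlap and the log2 difference was −1.33 (SE 0.09, adjusted p = 3.58e-05). The lineage genes *Gpr17* (−1.60), *Sox10* (−1.30), *Matn4* (−1.25) and *Cspg4* (−0.98) were lower as well. The lineage factors *Olig1* (interval −0.20 to 0.13) and *Olig2* (−0.34 to 0.06) were not DEGs, nor was myelin basic protein *Mbp* (−0.29 to 0.15). The count was 7 without the block. The summed level of the list was 2557 to 2965 RPM with DMF, 3013 to 3564 with MMF and 2910 to 3463 with DMSO.

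Of the astrocyte genes, 10 of 29 tested were lower and 2 higher. The share of higher genes is near the 4.97% over all genes tested, against 7.33% for lower ones. Glutamine synthetase *Glul* had 10713, 10605 and 6473 normalized counts with DMF and 18740, 20295 and 13015 with MMF (log2 difference −0.92, adjusted p = 2.82e-05), and the groups did not overlap. The radial glial fatty acid binding protein *Fabp7* (−0.84), the Notch target *Hes5* (−1.15) and the water channel *Aqp4* (−0.81) were lower. The intermediate filament *Gfap*, which rises in reactive astrocytes, had 48894, 55705 and 31797 with DMF and 34157, 39645 and 15618 with MMF, a log2 difference of 0.68 (adjusted p = 0.0016). For *Gfap* the groups overlapped, and the difference appeared within each pair. The adhesion receptor *Cd44* was the other higher gene, by 1.35. *Slc1a2*, *Sox9* and *S100b* were not DEGs, with intervals of −0.29 to 0.01, −0.29 to 0.02 and −0.31 to 0.03. The summed astrocyte level ranged from 6948 to 11886 RPM with DMF and from 7476 to 12886 with MMF, so it varied more between replicate numbers than between compounds. Without the block 2 genes were lower and 1 higher, and *Gfap* (adjusted p = 0.348), *Aqp4* (0.243) and *Glul* (0.0617) were among the calls lost. The call of *Cd44* was lost by DESeq2 (0.111), and its log2 difference was 0.78 without replicate 3.

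Of the endothelial, pericyte and fibroblast list, 6 of 15 genes were lower and none higher, and *Pdgfra* and *Cspg4* stand in this list too. Collagen *Col1a2* (−1.12) and *Col1a1* (−1.02) were among them. The summed level was 263 to 283 RPM with DMF, 327 to 455 with MMF and 335 to 373 with DMSO. *Col1a1* was at 11.4 to 18.2 RPM with DMF, 21.5 to 49.6 with MMF and 8.4 to 16.1 with DMSO. *Col1a2* was at 6.1 to 9.9 with DMF, 14.1 to 21.9 with MMF and 2.9 to 9.6 with DMSO. For both collagens the DMF range overlapped that of DMSO. Of 7 microglial genes tested none was a DEG by limma, edgeR or DESeq2 with the block in the 6 libraries, and 1 had an unadjusted p under 0.05. Limma called 1 higher without replicate 3, and 1 higher in each fit that added the DMSO or the 4 h libraries. The microfibril gene *Mfap4*, which is in no list, was lower with a log2 difference of −1.35, and *Eomes*, a factor of intermediate neuronal progenitors, with −1.96. Without the block 3 genes of the endothelial, pericyte and fibroblast list were lower, without *Col1a1* (adjusted p = 0.109), and without replicate 3 there were 9 lower and 1 higher.

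Genes of the neuronal, receptor, interneuron and synaptic lists were mostly lower with DMF where they differed. Bulk samples do not show in which cells. In the identity list 10 of 25 genes tested were lower with DMF and none higher. Neurofilament medium chain *Nefm* had 2640.4, 2334 and 3273 normalized counts with DMF and 4236, 3942 and 4389.9 with MMF (log2 difference −0.62, adjusted p = 4.30e-04). The light chain *Nefl* (−0.46), beta-III tubulin *Tubb3* (−0.45) and the vesicular glutamate transporter *Slc17a7* (−0.26) were also lower. *Map2* (interval −0.02 to 0.24), *Snap25* (−0.10 to 0.13) and *Mapt* (−0.13 to 0.13) were not DEGs. Receptor subunits gave 7 lower of 38 tested and none higher, with the AMPA subunit *Gria3* (−0.78), the NMDA subunit *Grin3a* (−0.97) and the metabotropic receptor *Grm3* (−0.77) leading. Interneuron genes gave 3 lower of 20, namely cholecystokinin *Cck* (−0.58), calretinin *Calb2* (−0.49) and neuropeptide Y *Npy* (−0.45), whereas *Gad1* and *Gad2* were not DEGs (intervals −0.33 to 0.03 and −0.12 to 0.17). Synaptic vesicle genes gave 2 lower and 1 higher of 33, near the 7.33% lower and 4.97% higher over all genes tested. The interneuron count is above that share by few genes. These counts moved with the setting. The lower genes without the block were 1 of the identity list, 2 receptor subunits, 1 interneuron gene and no synaptic vesicle gene, and those without replicate 3 were 14, 9, 9 and 6. Without replicate 2 the identity count was 4 and the receptor count 4, and without replicate 1 the identity count was 6. *Tubb3* (adjusted p = 0.108), *Nefl* (0.072), *Grm3* (0.0624) and *Calb2* (0.0629) were not called without the block. *Slc17a7* and *Npy* were called neither without it nor without replicate 1 (adjusted p = 0.0635 and 0.115) or replicate 2 (0.257 and 0.127).

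Immediate early and activity-dependent genes were higher with DMF, with 18 of 30 tested, none lower and a median of 0.662. *Atf3*, a stress-induced factor, had 157, 360.3 and 505 normalized counts with DMF and 34.1, 57.4 and 43.4 with MMF. It was 6.83 times higher with DMF (log2 difference 2.77, interval 2.28 to 3.26, adjusted p = 5.46e-05). *Rgs4*, which shortens signalling of G protein-coupled receptors (chromosome 13, 81936775 to 81943068 in mRatBN7.2), had 3549, 4202 and 3149 with DMF and 905, 1188 and 1116 with MMF, a log2 difference of 1.76 with the smallest p of the genes higher with DMF (adjusted p = 8.50e-06). *Egr1* had 1980, 2563 and 1576 with DMF and 589, 639 and 763 with MMF (log2 difference 1.60, adjusted p = 1.10e-04), and *Jun* had 3969, 6324 and 4496 with DMF and 2416, 2545 and 2228 with MMF (log2 difference 1.01, adjusted p = 1.27e-04). None of these 4 genes had overlapping groups. The synaptic genes *Arc* (1.73) and *Nptx2* (1.14), the neurotrophin *Bdnf* (0.84), the phosphatase *Dusp4* (0.87), *Egr2* (2.02) and *Fos* (1.27) were higher too. *Npas4* was not a DEG despite a log2 difference of 1.89 (interval 0.62 to 3.16), and only the DMF library of replicate 1 was high (818, 82.9 and 72.0 with DMF against 39.1, 47.4 and 50 with MMF). The count was 10 without the block and 22 without replicate 3. *Bdnf* and *Fos* were called neither without the block (adjusted p = 0.159 and 0.0717) nor by DESeq2 (0.351 and 0.0862), and without replicate 1 the log2 difference of *Bdnf* was 0.36 (0.0607).

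Stress genes downstream of ATF4, the factor of the integrated stress response, were higher with DMF in 19 of 46 tested, with 1 lower and a median of 0.296. *Trib3*, a pseudokinase, had 41.9, 115 and 263 normalized counts with DMF and 14, 18.2 and 21.7 with MMF. It was 5.86 times higher with DMF (log2 difference 2.55, SE 0.33, adjusted p = 0.00101), and the DMF library of replicate 3 was the highest. *Ddit4l*, an inhibitor of mTORC1 signalling, had 478, 575 and 649 with DMF and 147, 158 and 106 with MMF (log2 difference 2.05, adjusted p = 4.79e-05). *Ddit3*, which encodes CHOP, had 501, 727 and 668 with DMF and 289.8, 301 and 299.9 with MMF (log2 difference 1.07, adjusted p = 1.83e-04). The amino acid transporters *Slc7a3* (1.11) and *Slc7a5* (0.63) and the tRNA synthetase *Eprs1* (0.54) were higher, and *Atf4* itself was not a DEG (interval 0.09 to 0.49). This list holds *Chac1*, *Sesn2*, *Slc3a2* and *Slc7a11*, which are counted in the Nrf2 lists as well. Chaperones of the endoplasmic reticulum went the other way, with 7 of 23 lower and 2 higher. *Calr* (−0.60), *Hsp90b1* (−0.54), *Hspa5* (−0.38) and the disulfide isomerases *Pdia4* (−0.43) and *Pdia6* (−0.42) were lower, and *Herpud1* (0.45) and the sensor *Ern1* (0.43) were higher. The ATF4 count was 7 higher without the block and 30 without replicate 1. Without the block *Eprs1* (adjusted p = 0.105), *Hspa5* (0.2) and *Herpud1* (0.0958) were not called, and without replicate 2 *Hspa5* (0.0939) and *Pdia4* (0.0613) were not. *Ern1* was called neither without the block (0.107) nor by DESeq2 (0.2), nor with any 1 replicate left out (0.0503, 0.167 and 0.105). The chaperone list gave 4 lower and none higher without the block, and 4 lower and 1 higher without replicate 2.

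Of the growth arrest, apoptosis and Bcl2 family list, 14 of 27 tested were higher with DMF and none lower, with a median of 0.341. *Cdkn1a*, the cyclin-dependent kinase inhibitor p21, had 1025, 1572 and 1317 normalized counts with DMF and 354, 302 and 380.1 with MMF. The log2 difference was 1.90 (SE 0.13, adjusted p = 3.83e-05), 3.73 times higher with DMF with no overlap. The death receptors *Eda2r* (1.92) and *Fas* (1.26), the repressor of Akt *Phlda3* (0.88) and the pro-apoptotic BH3 genes *Bbc3* (0.92) and *Bcl2l11* (0.73) were higher. Other pro-apoptotic genes, *Bad* (−0.05), *Bmf* (−0.06), *Bid* (−0.02) and *Bak1* (−0.03), were not DEGs. The anti-apoptotic genes *Bcl2* (interval −0.14 to 0.22) and *Mcl1* (−0.11 to 0.17) were not DEGs either. *Bax*, which was also counted, overlaps *Ftl1*, and without a stated strand setting reads from the pair may be shared. Without the block the count was 8, and *Phlda3* (adjusted p = 0.0819) and *Bcl2l11* (0.0909) were not called.

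Lipid genes differed in part, and neither branch moved as a whole. Sterol synthesis was lower with DMF in 12 of 28 genes tested and higher in 2. *Hmgcs1*, an early enzyme of the pathway, had 18658, 17193 and 18617 normalized counts with DMF and 27354, 24685 and 24943 with MMF (log2 difference −0.50, adjusted p = 4.47e-04), and *Idi1* (−0.65), *Fdft1* (−0.41), *Mvk* (−0.52), *Dhcr7* (−0.39) and the sterol carrier *Stard4* (−0.86) were lower. The 2 higher genes were *Insig1* and *Srebf1*. *Srebf1*, the factor of fatty acid synthesis, had 4592, 6664 and 6664 with DMF and 2262, 2928 and 2224 with MMF (log2 difference 1.26, adjusted p = 3.83e-05). Fatty acid genes were higher in 7 of 27 and lower in 3, 17 were not DEGs, and the median was 0.123. The lower genes were *Acacb* (−0.86), *Acsbg1* (−0.34) and *Acly* (−0.25). Fatty acid synthase *Fasn* had 29763, 36379 and 31627 with DMF and 15824, 16693 and 16856 with MMF (log2 difference 0.98, adjusted p = 2.82e-05), and the desaturase *Scd* (0.94), acetyl-CoA carboxylase *Acaca* (0.37) and the lipase family member *Pnpla3* (0.61) were higher. The acyltransferase *Lpcat1* (1.33) and the ubiquitin ligase *Rnf145* (0.97), in neither list, were among the higher genes with the smallest p, as were the RNA-binding regulator *Arid5a* (1.68) and the kinase *Stk32b* (0.95). Of 26 glycolytic genes tested, 13 were lower with DMF than with MMF and 2 higher. Set against DMSO, the medians of these 26 genes were −0.017 with DMF and 0.222 with MMF. With DMF 3 of them were above DMSO and 3 below, and with MMF 1 was above and none below. *Slc16a3*, a lactate exporter, had 20.4, 14.4 and 11.7 normalized counts with DMF and 87.2, 157 and 24.5 with MMF (log2 difference −2.13, adjusted p = 0.00534), and *Pgk1* (−0.52), *Ldha* (−0.46), *Tpi1* (−0.38) and *Pkm* (−0.39) followed. Without the block 6 sterol genes were lower and 1 higher, and *Fdft1* (adjusted p = 0.0904) and *Insig1* (0.0602) were not called, the latter not by DESeq2 either (0.107). Fatty acid genes then gave 4 higher and none lower, and glycolytic genes 1 higher and none lower, with an adjusted p of 0.0972 for *Slc16a3*. Without replicate 2 the count of lower glycolytic genes was 8, and of lower fatty acid genes 1, as without replicate 1, where 4 sterol genes were higher. Without replicate 3, 5 fatty acid genes were lower.

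Other stress and housekeeping lists moved in part. Of 30 autophagy and lysosome genes, 8 were higher with DMF and none lower, among them *Sqstm1* and *Gabarapl1* (0.44), and this count was 3 without the block and 3 without replicate 2. Of 24 heat shock genes, 5 were higher and 3 lower, with the small heat shock protein *Hspb8* (0.83) and *Hspa2* (−0.59) at the ends. This became 1 and 1 without the block, which lost *Hspb8* (adjusted p = 0.0592), 2 and 1 without replicate 2, and 5 and 5 without replicate 3. Of 15 metallothionein and zinc transport genes, 3 were higher and 1 lower, including *Mt1* (0.45) and the zinc exporter *Slc30a1* (0.37). *Mt1* was lost without the block (adjusted p = 0.421), by DESeq2 (0.051) and without replicate 1 (0.082), and *Slc30a1* without replicate 2 (0.0668). The zinc count was 1 higher and none lower without the block, 1 and 1 without replicate 2, and 3 and 3 without replicate 3. Of 17 inflammatory genes, the cytokine *Lif* (1.51) and the NF-kB subunits *Relb* (0.95) and *Nfkb1* (0.33) were higher. All 3 calls were lost without the block (adjusted p = 0.204, 0.122 and 0.107) and without replicate 3 (0.0663, 0.086 and 0.101), where *Lif* differed by 0.85 and *Relb* by 0.43. *Nfkb1* was also lost by DESeq2 (0.106) and without replicate 1 (0.0815). Of 37 proteasome subunits none was a DEG by limma, edgeR or DESeq2 with the block, 5 had an unadjusted p under 0.05, and their median was 0.033 (−0.006 without replicate 2). Without replicate 3 limma called 1 higher and 1 lower. In each fit that added the DMSO or the 4 h libraries it called 1 lower. The subunits *Psma1* and *Psmb2* had intervals of −0.11 to 0.16 and −0.12 to 0.17. Outside the lists *Ambp*, the precursor of alpha-1-microglobulin, was higher by 2.39.

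**Figure D4:**
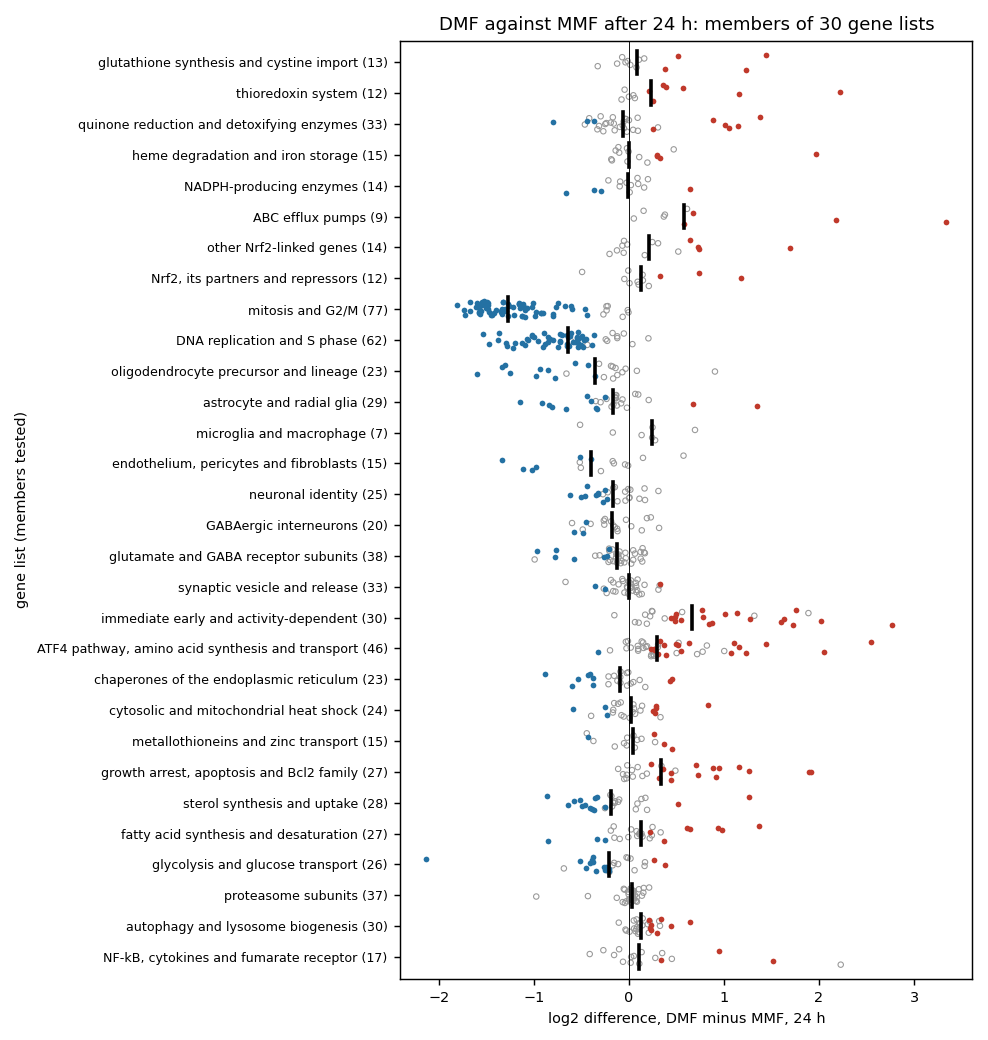
For each of the 30 gene lists, the log2 difference between DMF and MMF at 24 h of every member tested (points, horizontal axis), with the list's median marked and DEGs coloured by direction. Mitosis genes lie together on the left (median −1.269), proteasome subunits at 0 (median 0.033), and immediate early genes on the right (median 0.662).

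Each compound was also set against DMSO, on the common scale of the 9 libraries. These comparisons share the DMSO libraries with each other and the treated libraries with the comparison above, so their values are given side by side only. DMF differed from DMSO in 2300 genes, 16.1% of 14252 tested, of which 1029 (7.22%) were higher and 1271 (8.92%) lower. MMF differed from DMSO in 26 genes (0.182%), and all 26 were higher. DESeq2 called 40 higher and 1 lower, and without replicate 3 limma called 233 higher and 22 lower. The 26 included *Nqo1*, *Gstp1*, *Gsta1*, *Aox1*, *Me1*, *Pir* and *Prdx1*. For *Nqo1* the log2 difference from DMSO was 2.35 with DMF and 0.98 with MMF, and for *Gstp1* it was 1.55 and 0.66. For *Hmox1* it was 3.09 with DMF and 1.12 with MMF, the latter not past the threshold (interval 0.40 to 1.83). For *Srxn1* the values were 3.05 and 0.83 (MMF interval 0.18 to 1.48), and for *Slc7a11* 2.17 and 0.73 (MMF interval −0.05 to 1.51). For *Top2a* they were −1.47 and 0.20 (MMF interval 0.07 to 0.33), and for *Cdkn1a* 1.76 and −0.14 (MMF interval −0.43 to 0.15). With MMF, none of *Srxn1*, *Slc7a11*, *Top2a* and *Cdkn1a* passed the threshold against DMSO, and the intervals are not adjusted for the number of genes. Of the 77 mitosis genes 69 were below DMSO with DMF, with a median of −1.064, and the median with MMF was 0.184. The medians with DMF and with MMF were 0.287 and 0.017 for the 46 ATF4 genes and 0.673 and 0.028 for the 30 immediate early genes. The glycolytic enzyme *Pkm* differed from DMSO by 0.31 with MMF (adjusted p = 0.039) and by −0.08 with DMF (adjusted p = 0.37). The count for MMF was 3 without the block, 41 by DESeq2, 3 without replicate 1, 3 without replicate 2 and 255 without replicate 3.

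The difference between the compounds was not the same at 4 h and 24 h for many genes. In a fit of the 12 DMF and MMF libraries of both times, the difference between compounds changed between times in 2204 genes, 15.2% of 14458 tested, and was more positive at 24 h in 1014 (7.01%) and more negative in 1190 (8.23%). *Top2a* differed by 0.20 at 4 h, and the change to 24 h was −1.86 (SE 0.12, adjusted p = 2.47e-07). All 70 mitosis genes that changed between times became more negative, and the list's median was 0.107 at 4 h. *Rgs4* was lower with DMF at 4 h (log2 difference −0.60, adjusted p = 0.0011) and higher at 24 h, a change of 2.37. Immediate early genes as a list had a median of −0.408 at 4 h, and 20 of them became more positive. *Abcb1b* (−0.46 at 4 h, change 2.65) and *Nqo1* (0.60, change 0.79, adjusted p = 0.042) also became more positive. Chaperones of the endoplasmic reticulum had a median of 0.466 at 4 h, and 18 of 23 became more negative by 24 h, *Hspa5* among them (0.86 at 4 h, change −1.24). *Hmox1* differed by 2.86 at 4 h, with a change of −0.89 (adjusted p = 0.321), and *Srxn1* by 0.71, with a change of 1.52 (adjusted p = 0.0343). The glutathione list had no gene that changed between times by this test.

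**Figure D5:**
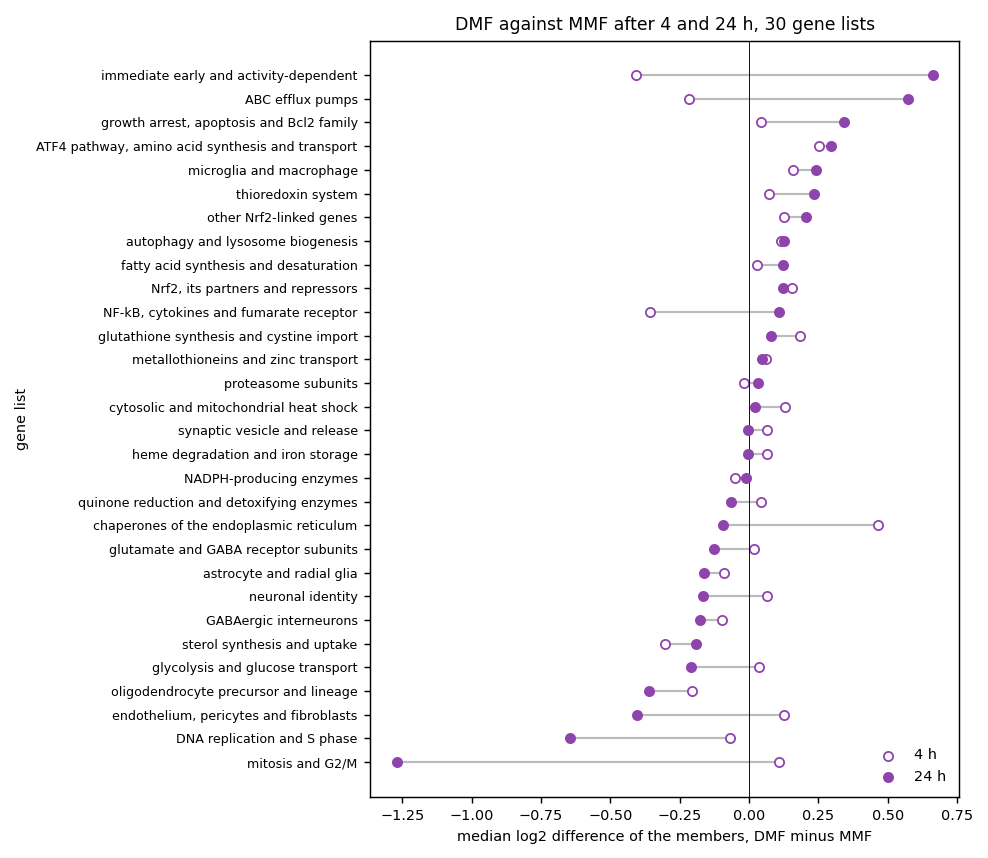
Median log2 difference between DMF and MMF for each of the 30 gene lists at 4 h and at 24 h. Mitosis genes move from 0.107 to −1.269, immediate early genes from −0.408 to 0.662, and chaperones of the endoplasmic reticulum from 0.466 to −0.092.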

How the data were processed

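RNA sequencing (poly(A)-selected, paired-end) was analysed for neurons treated for 24 h with DMF or MMF, with DMSO at 24 h and both compounds at 4 h beside them (3 libraries per group). The authors removed adapters (cutadapt 4.4) and low-quality ends (Trimmomatic 0.39), mapped with HISAT2 2.2.1 to mRatBN7.2, counted reads per gene of Ensembl release 111 with HTSeq 2.0.3, and divided the counts by DESeq2 1.40.2 size factors. The strand setting of the counting is not given in the sources used here. The deposited tables hold this signal, normalized counts per gene and library, in comparison tables whose remaining columns, the authors' own fold changes and p-values, were not used. Dividing each library's values by the worth of 1 read gave whole reads, within 0.001 of a read, for 100% of 481326 values tested.

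The 6 libraries were fitted with limma 3.58.1 (R 4.3.3), with a mean trend, on log2(value + 1) with the replicate number as a block, after edgeR's (4.0.16) filter on low counts. Genes with an adjusted p (Benjamini-Hochberg over all 14233 genes tested, 14123 of them protein-coding) under 0.05 were DEGs. DMSO and 4 h comparisons used recovered reads scaled over 9 or 12 libraries. Same-numbered libraries deviated together (correlations of 0.256, 0.389 and 0.465, against −0.352 to 0.050 for other pairs), and the study had 3 independent experiments, though the labels do not say that a number marks one. Nothing in the labels says that cultures came from separate litters. With the block, p-values measure the spread of the differences within replicate numbers among these samples only. DESeq2 1.42.0 and edgeR with the block, no block, TMM scaling, no filter, a pseudocount of 0.1, a log2 minimum of 0.5, and each replicate number left out were alternatives. The main fit leaves 2 residual degrees of freedom per gene, and fits with a replicate number left out leave fewer. Their p-values lean more on the variance that limma estimates over all genes. For *Rgs4* the adjusted p by limma was 8.50e-06 in the main fit and 1.17e-122 without replicate 3. Passing in such a fit is not evidence of stability. DMF and MMF at 24 h were also compared in the fits of 9 and 12 libraries. edgeR was added after seeing the data, as were the list counts by setting. Scripts were tested on simulated data.

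Named were the 12 higher and 12 lower DEGs with the smallest p that did not overlap and had 1 sign in every pair, the 5 higher and 5 lower with the largest difference at a mean of at least 50, up to 8 DEGs per list by p, and the Nrf2 genes that the study names. Members and lists were chosen with earlier results of these data known, and other genes, mostly those that were not DEGs, were named after their values were seen. Some genes are not reported here.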

Additional observations from a re-analysis of the deposited data

Results flagged for a closer look

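The difference between DMF and MMF changed between 4 h and 24 h, by a test of the change itself (limma, 12 libraries, replicate number as a block, adjusted p under 0.05), in 2204 genes. Of the 24 genes named for the smallest p at 24 h, 22 were among them. Part of these had a more positive log2 difference at 24 h than at 4 h, with changes of 2.37 for *Rgs4*, 1.4 for *Arid5a*, 0.89 for *Fasn*, 1.35 for *Cdkn1a*, 0.76 for *Lpcat1*, 1.71 for *Srebf1*, 2.65 for *Abcb1b*, 1.03 for *Stk32b*, 0.77 for *Gstp1*, 0.70 for *Rnf145* and 2.00 for *Atf3*. The others had a more negative one, with changes of −1.86 for *Top2a*, −1.47 for *Cenpf*, −1.67 for *Ccna2*, −1.30 for *Mfap4*, −1.70 for *Cdc20*, −1.58 for *Prc1*, −0.66 for *Glul*, −1.67 for *Iqgap3*, −1.66 for *Ndc80*, −0.62 for *Fabp7* and −1.41 for *Cdk1*. *Ddit4l* and *Pdgfra* did not pass this test.

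Of 110 tested genes that are not protein-coding, which the report leaves out, 3 differed between the compounds at 24 h at the same threshold.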

How the results depend on the processing

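Of the genes named by the rule, none of the 175 DEGs changed the sign of its log2 difference under the alternatives tried. This was largely fixed in advance, since 1734 of the 1737 DEGs had 1 sign in every pair. The fits without the block and with a log2 minimum leave the difference as it was. The medians of 7 of the 30 lists did change sign. These were heme and iron (−0.009 to 0.061), microglia (−0.044 to 0.303), synaptic vesicle (−0.049 to 0.012), heat shock (−0.028 to 0.03), zinc (−0.022 to 0.06), proteasome (−0.006 to 0.068) and inflammatory genes (−0.023 to 0.189). Without the replicate block the count of DMF against MMF at 24 h fell from 1737 to 505, that of the change between times from 2204 to 583, that of DMF against DMSO from 2300 to 774 and that of MMF against DMSO from 26 to 3. With a log2 difference of at least 0.5 the counts were 795, 1246, 808 and 15. By DESeq2 with the block the count of DMF against MMF was 1124 and that of MMF against DMSO 41. Leaving out 1 replicate number at a time gave 890 to 2734 for DMF against MMF, 582 to 1889 for the change between times, 579 to 2650 for DMF against DMSO and 3 to 255 for MMF against DMSO, with the lowest count in each without replicate 2 (for MMF against DMSO also without replicate 1). TMM scaling, no filter, a pseudocount of 0.1 and edgeR with the block kept all 4 counts within 1.5 times. Of 178 genes named by the rule, 175 were DEGs and 88 of these passed in every setting other than the log2 minimum. Calls lost were 80 without the block, 33 without replicate 2, 14 without replicate 1, 7 without replicate 3, 21 by DESeq2 and 2 by edgeR. DESeq2 gave *Abcb1a* no adjusted p. The cause of these changes was not tested. Depth limits low genes, and 4755 of 18878 protein-coding genes were too low to test.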
